A study of Mus musculus with 24 samples.

Results

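The genes described here encode folliculin (Flcn), its partner proteins FNIP1 and FNIP2 (Fnip1, Fnip2) and the Rag GTPases RagA, RagB, RagC and RagD (Rraga, Rragb, Rragc, Rragd). They were chosen by gene name and are 7 of the 55487 genes in the count table, of which 15828 passed the filter on low counts. All 7 passed that filter, Rragd through the groups other than WT DMSO, where 2 of its 4 libraries held under 10 counts. Messenger RNA was sequenced from mouse embryonic fibroblasts (MEFs), cultured connective tissue cells of the embryo, in 6 groups of 4 libraries. The cells were wild type (WT) or AMPK knock-out (AMPK KO), and each genotype received MK-8722, a direct activator of the energy-sensing kinase AMPK, torin1, an inhibitor of the kinase MTOR, or DMSO, the solvent used as control. The study's methods describe the AMPK KO cells as lacking both catalytic subunit genes, Prkaa1 and Prkaa2. WT libraries came from passages 12 to 15 and AMPK KO libraries from passages 16 to 19, with 1 library of each passage in each group, so that genotype and passage range cannot be told apart. By the study's methods, the WT and AMPK KO cells were supplied by another laboratory, and no number of independent lines is given. Cell line and knock-out therefore cannot be told apart either, in comparisons or interactions between the genotypes. All libraries carried the same batch label.

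The Rag GTPases work as heterodimers of RagA or RagB with RagC or RagD on the lysosomal surface, where the loaded dimer recruits the kinase complex MTORC1 when amino acids are plentiful. Folliculin, bound to FNIP1 or FNIP2, is the GTPase-activating protein of RagC and RagD and thereby controls whether MTORC1 can reach the transcription factors TFEB and TFE3, which drive lysosomal genes once they are no longer phosphorylated. AMPK phosphorylates FNIP1, and genes of the FLCN and Rag system are themselves known targets of TFEB and TFE3.

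On the GRCm38 annotation all 7 are protein-coding genes. Flcn (ENSMUSG00000032633) lies at chr11:59791408-59810016 on the minus strand and Fnip1 (ENSMUSG00000035992) at chr11:54438199-54518235 on the plus strand of the same chromosome, while Fnip2 (ENSMUSG00000061175) lies at chr3:79455974-79567796 on the minus strand. The Rag genes are all on the plus strand, Rraga (ENSMUSG00000070934) at chr4:86575668-86577285, Rragc (ENSMUSG00000028646) at chr4:123917446-123936997, Rragd (ENSMUSG00000028278) at chr4:32983037-33022180 and Rragb (ENSMUSG00000041658) at chrX:153139981-153171943.

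The MiT/TFE factors bind an E-box with the core CACGTG, so the promoters that hold this core are shown first, with the core in capitals. RefSeq promoter windows of 300 bases around the annotated start site (build GRCm38.p6) were matched for all 7 genes. The core reads the same on both strands and was found in 3 of the 7 windows, those of Fnip1, Rragb and Rragc, beside 7.15% of the 32851 promoter windows of the table. They are given 5′ to 3′ on the strand of the gene, which is the plus strand for each, at chr11:54437929-54438228 for Fnip1, chrX:153139708-153140007 for Rragb and chr4:123917183-123917482 for Rragc.
Fnip1: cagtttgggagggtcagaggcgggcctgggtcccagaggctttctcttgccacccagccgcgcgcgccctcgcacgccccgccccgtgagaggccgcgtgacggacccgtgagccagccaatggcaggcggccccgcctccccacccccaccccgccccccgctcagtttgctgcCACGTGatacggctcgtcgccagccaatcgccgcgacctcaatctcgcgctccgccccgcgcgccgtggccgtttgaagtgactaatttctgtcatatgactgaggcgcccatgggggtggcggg
Rragb: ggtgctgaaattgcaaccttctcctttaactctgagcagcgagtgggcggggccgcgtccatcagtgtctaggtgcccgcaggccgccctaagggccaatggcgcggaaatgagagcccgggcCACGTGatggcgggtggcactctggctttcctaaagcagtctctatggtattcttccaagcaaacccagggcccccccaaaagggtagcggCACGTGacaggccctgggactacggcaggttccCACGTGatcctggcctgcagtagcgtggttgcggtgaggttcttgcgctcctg
Rragc: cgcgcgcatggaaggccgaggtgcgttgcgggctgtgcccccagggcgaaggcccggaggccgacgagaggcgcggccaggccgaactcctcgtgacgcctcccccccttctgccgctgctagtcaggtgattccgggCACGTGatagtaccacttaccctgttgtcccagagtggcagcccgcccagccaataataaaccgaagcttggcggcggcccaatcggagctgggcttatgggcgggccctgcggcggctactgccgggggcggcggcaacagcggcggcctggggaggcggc

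The core began 75 bases before the start site in Fnip1 and 112 bases before it in Rragc, and Rragb held 3 copies, 127, 36 and 3 bases before it. The windows of Flcn, Fnip2, Rraga and Rragd did not contain these letters. The longer form TCACGTGA, which includes the core and also reads the same on both strands, was in none of the 7 windows and in 0.974% of all windows. These matches describe the sequence alone.

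The estimated counts summed to between 26900240 and 34192685 per library, RNA integrity numbers ran from 9.7 to 10, and replicates correlated at r between 0.989 and 0.993 in log2 CPM (counts scaled by library size and TMM factors) across genes. Beyond the passage, nothing in the labels says that replicates were separate cultures, so p values measure only the spread between these libraries. Prkaa1 and Prkaa2 transcripts were still counted in AMPK KO (70.9 and 3.21 CPM in DMSO, against 80.9 and 4.74 CPM in WT), so the gene counts do not check the deletion. Of 7 fibroblast markers, 6 were called lower in AMPK KO than in WT under DMSO and 1 was called higher, with Col1a2 at 28.4 against 2503 CPM and Vim at 1886 against 3528 CPM. Of all tested genes, 25.9% were called lower and 30.8% higher in this comparison. Of 6 markers of other cell types, 4 were tested and all 4 were called higher, with Epcam at 2.15 against 0.745 CPM and Cdh5 at 0.311 against 0.00785 CPM. Cdh5 held only 5 to 13 counts against 0 to 1, and Pecam1 only 6 to 11 against 1 to 2. The leukocyte marker Ptprc held at most 1 count and the macrophage marker Adgre1 none in any of these 8 libraries. These marker differences moved with genotype, and their part in the differences between genotypes given below was not tested. In bulk RNA of this kind, fewer cells of a type and less RNA per cell cannot be told apart.

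Differences were tested with edgeR's quasi-likelihood test, and p values adjusted over all tested genes by the Benjamini-Hochberg method are given as edgeR FDR. Genes with an FDR under 0.05 that changed 1.2-fold or more, up or down, were called. Levels are in CPM, which do not allow for gene length, and levels are compared between genes only in TPM (abundances scaled by transcript length and depth), which do. Comparisons of MK-8722 and torin1 with DMSO in one genotype share the 4 DMSO libraries of that genotype, as does the comparison of genotypes, so their values stand side by side and are not independent.

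The question of the first comparison was which of these genes responded to AMPK activation. MK-8722 raised 6 of the 7 transcripts in WT, all but Rraga, and lowered none. Their increases ran from 1.76-fold for Rragb to 3.90-fold for Rragd, and the median log2 change of the 7 was 1.11, beside 0.00 over all tested genes. Among all tested genes, 9.96% were called higher and 5.6% lower in this comparison. In AMPK KO, MK-8722 called none of the 7 in either direction by edgeR or by DESeq2, with 1 of them, Rraga, at an unadjusted p under 0.05, beside 0.809% of genes called higher and 0.651% called lower. The median log2 change of the 7 there was 0.08.

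Flcn, the catalytic partner of the complex, stood at 33.6, 34.1, 28.8 and 32.1 CPM in the WT DMSO libraries and at 74.8, 70.6, 72.3 and 69.5 CPM under MK-8722. The AMPK KO libraries stood at 27.7, 28.0, 28.6 and 27.0 CPM in DMSO and at 29.5, 29.8, 28.3 and 27.2 CPM under MK-8722. Every WT library treated with MK-8722 lay above every WT control, while the AMPK KO groups overlapped. Its log2 fold change was 1.16 ± 0.08 (SE, n = 4 against 4, edgeR FDR = 3.93e-11) in WT and 0.05 ± 0.08 (edgeR FDR = 0.842, 95% interval -0.11 to 0.21) in AMPK KO.

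Fnip1, whose product is the FLCN partner that AMPK phosphorylates, stood at 27.5, 27.2, 28.7 and 28.6 CPM in WT DMSO and at 70.8, 71.6, 67.2 and 76.7 CPM under MK-8722. Its AMPK KO libraries held 20.6, 20.7, 25.7 and 20.6 CPM in DMSO and 22.2, 25.6, 21.6 and 23.2 CPM under MK-8722. The WT groups were far apart and the AMPK KO groups overlapped, 1 AMPK KO DMSO library (replicate 3) lying above the other 3 of its group. The log2 fold change was 1.35 ± 0.11 (SE, edgeR FDR = 5.58e-09) in WT and 0.08 ± 0.12 (edgeR FDR = 0.814, 95% interval -0.16 to 0.32) in AMPK KO.

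Fnip2, the paralogue of Fnip1, had 29.1, 29.6, 26.8 and 29.3 CPM in WT DMSO and 64.4, 62.0, 59.6 and 61.5 CPM under MK-8722. Its AMPK KO levels were 15.5, 16.1, 13.4 and 13.9 CPM in DMSO and 15.8, 14.6, 16.7 and 16.2 CPM under MK-8722. The WT groups did not overlap and the AMPK KO groups did, and all 8 of these AMPK KO libraries lay below all 8 WT libraries. The log2 fold change was 1.11 ± 0.09 (SE, edgeR FDR = 8.39e-10) in WT and 0.11 ± 0.09 (edgeR FDR = 0.648, 95% interval -0.09 to 0.30) in AMPK KO.

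Rraga and Rragb encode one side of the Rag dimer, and only Rragb passed the test in WT. Rraga stood at 65.2, 64.2, 65.3 and 65.3 CPM in WT DMSO and at 68.6, 58.8, 65.6 and 66.0 CPM under MK-8722, a change of -0.01 ± 0.04 on the log2 scale (SE, edgeR FDR = 0.951, 95% interval -0.09 to 0.08). Its AMPK KO libraries stood at 70.9, 71.7, 71.8 and 71.8 CPM in DMSO and at 78.3, 75.6, 74.3 and 77.2 CPM under MK-8722, groups that did not overlap, and the change was 0.09 ± 0.04 on the log2 scale (SE, edgeR FDR = 0.258). Rragb held 6.53, 5.74, 6.16 and 6.03 CPM in WT DMSO and 11.6, 11.2, 9.03 and 11.1 CPM under MK-8722, an increase of 0.81 ± 0.11 on the log2 scale (SE, edgeR FDR = 3.23e-06). Every treated WT library was above every control for Rragb, whereas the treated libraries lay on both sides of the controls for Rraga. In AMPK KO Rragb stood at 4.45, 4.92, 4.64 and 3.78 CPM in DMSO and at 4.36, 5.87, 4.42 and 4.41 CPM under MK-8722, overlapping groups that differed by 0.10 ± 0.12 on the log2 scale (SE, edgeR FDR = 0.737).

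Rragc and Rragd encode the side of the dimer on which FLCN acts. Rragc stood at 76.1, 76.8, 72.6 and 74.1 CPM in WT DMSO and at 155.3, 134.8, 141 and 147.7 CPM under MK-8722, without overlap, an increase of 0.95 ± 0.06 on the log2 scale (SE, edgeR FDR = 4.83e-11). Its AMPK KO libraries held 51.8, 54.7, 53.9 and 52.9 CPM in DMSO and 51.8, 49.3, 51.6 and 53.8 CPM under MK-8722, which overlapped (log2 fold change -0.05 ± 0.06, edgeR FDR = 0.792). In the annotation, 264 of the 3341 exon bases of Rragc (7.9%) are shared with the gene 4930535I16Rik on the opposite strand, and the strand setting of the counting is not given in the sources used here. The other 6 genes share no exon bases with another gene.

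Rragd was the scarcest of the 7 in WT. It held 14, 9, 8 and 12 counts in the WT DMSO libraries (0.491, 0.329, 0.288 and 0.377 CPM) and 39, 48, 32 and 40 counts under MK-8722 (1.52, 1.75, 1.26 and 1.33 CPM). The groups did not overlap, and the increase was 1.96 ± 0.27 on the log2 scale (SE, edgeR FDR = 5.79e-06, 95% interval 1.40 to 2.53). The AMPK KO libraries held 5.20, 5.37, 7.08 and 4.20 CPM in DMSO and 4.33, 5.51, 4.91 and 4.86 CPM under MK-8722, which overlapped (log2 fold change -0.16 ± 0.17, edgeR FDR = 0.724, 95% interval -0.51 to 0.20).

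**Figure D1:**
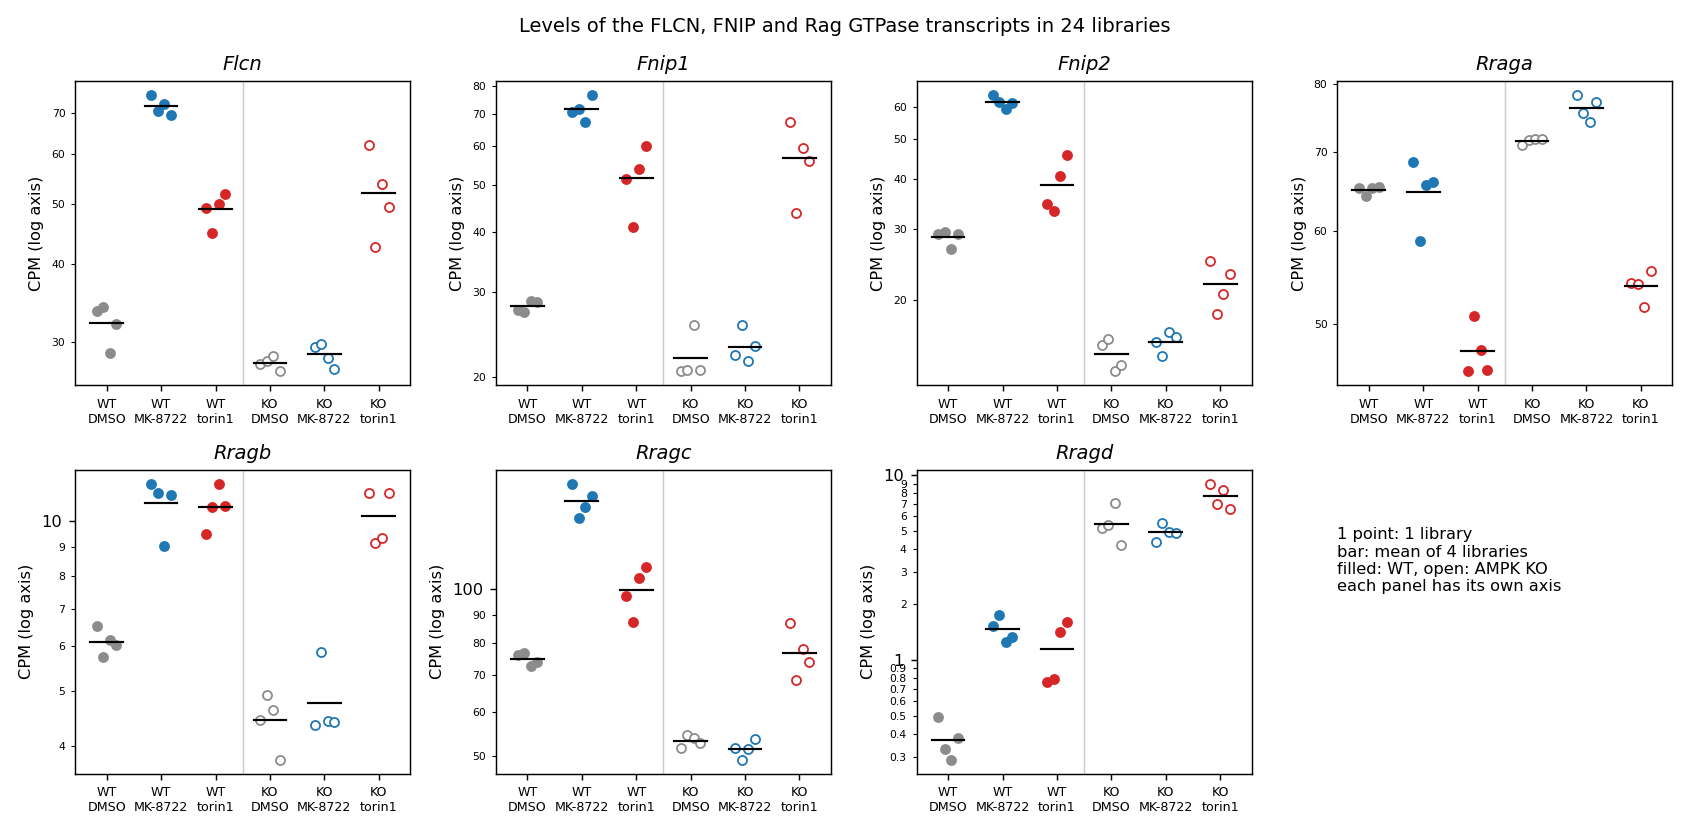
Levels of the 7 transcripts in CPM (log axis, 1 panel a gene, each with its own axis) in the 6 groups, with 1 point a library and a bar at the mean of 4 libraries. MK-8722 raised all but Rraga in WT and none in AMPK KO, torin1 raised 6 and lowered Rraga in both genotypes, and every AMPK KO library had more Rragd than any WT library.

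Whether MK-8722 acted differently on these genes in WT and AMPK KO was tested as an interaction in the same fit. It was called lower in AMPK KO for 6 of the 7 genes and for none in the other direction, beside 7.56% and 5.05% of all tested genes. The log2 difference of the responses was -1.11 ± 0.11 for Flcn (SE, edgeR FDR = 1.19e-07), -1.27 ± 0.16 for Fnip1 (edgeR FDR = 8.14e-06) and -1.002 ± 0.128 for Fnip2 (edgeR FDR = 5.85e-06). Among the Rag genes it was -0.71 ± 0.16 for Rragb (edgeR FDR = 0.00278), -0.998 ± 0.091 for Rragc (edgeR FDR = 5.08e-08) and -2.12 ± 0.32 for Rragd (edgeR FDR = 5.33e-05). For Rraga it was 0.10 ± 0.06 (edgeR FDR = 0.286), with a 95% interval of -0.02 to 0.22. When libraries of the same passage were compared, MK-8722 was above DMSO in 4 of 4 WT passages for each of the 6 called genes. In AMPK KO it was above DMSO in 4 of 4 passages for Flcn, Fnip2 and Rraga, in 3 for Fnip1, in 2 for Rragb and Rragc and in 1 for Rragd. Within passages, the log2 difference of Flcn ran from 1.05 to 1.32 in WT cells but from 0.01 to 0.09 in AMPK KO cells, and that of Fnip2 from 1.08 to 1.15 and from 0.02 to 0.22.

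The next comparison asked what inhibition of MTOR did to the same genes. Torin1 raised 6 of the 7 transcripts and lowered Rraga in WT, and did the same in AMPK KO. Called higher in WT were 26.5% of all tested genes and called lower 21.1%, and in AMPK KO these shares were 25.8% and 17.5%. The median log2 change of the 7 was 0.61 in WT and 0.58 in AMPK KO, beside 0.04 and 0.06 over all tested genes. Cell type markers moved with torin1 too, and their part in these results was not tested. Of 7 fibroblast markers, 3 were called higher and 2 lower in WT, and 2 higher and 2 lower in AMPK KO, with Pdgfra at 2.75 and 1.13 and Col1a1 at -1.05 and -1.22 on the log2 scale. Of the 4 tested markers of other cell types, 2 were called higher in WT, Epcam at 0.72 and Cdh1 at 0.92, and 1 in AMPK KO, Epcam at 0.67. In every passage of both genotypes, the torin1 library was above its DMSO counterpart for the 6 genes and below it for Rraga.

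In the FLCN complex, Flcn stood at 49.2, 44.96, 49.96 and 51.8 CPM in WT under torin1 and at 62.2, 42.7, 53.8 and 49.5 CPM in AMPK KO. Fnip1 stood at 51.5, 40.8, 54.0 and 60.1 CPM in WT and at 67.4, 43.8, 59.7 and 56.0 CPM in AMPK KO, and Fnip2 at 34.7, 33.3, 40.5 and 45.7 CPM in WT and at 25.1, 18.5, 20.7 and 23.3 CPM in AMPK KO. None of these groups overlapped with the DMSO libraries of its genotype, and in AMPK KO replicate 2 was the lowest of the 4 for all 3 genes. The log2 fold change of Flcn was 0.61 ± 0.08 in WT (SE, edgeR FDR = 1.99e-07) and 0.90 ± 0.08 in AMPK KO (edgeR FDR = 3.80e-10). For Fnip1 it was 0.88 ± 0.11 in WT (edgeR FDR = 4.62e-07) and 1.37 ± 0.11 in AMPK KO (edgeR FDR = 8.06e-10). Fnip2 rose by 0.43 ± 0.09 in WT (edgeR FDR = 0.000165) and 0.57 ± 0.09 in AMPK KO (edgeR FDR = 9.84e-06).

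On the first side of the Rag dimer the paralogues moved in opposite directions under torin1. Rraga stood at 45.6, 50.8, 47.5 and 45.7 CPM in WT and at 54.2, 54.0, 51.6 and 55.5 CPM in AMPK KO, below every DMSO library of its genotype. Its log2 change was -0.46 ± 0.04 in WT (SE, edgeR FDR = 1.39e-09) and -0.41 ± 0.04 in AMPK KO (edgeR FDR = 9.74e-09). Rragb stood at 9.46, 10.6, 11.6 and 10.6 CPM in WT and at 11.2, 9.15, 9.32 and 11.2 CPM in AMPK KO, above every DMSO library. It rose 1.73-fold in WT (SE 0.11 on the log2 scale, edgeR FDR = 7.06e-07) and 2.30-fold in AMPK KO (SE 0.11, edgeR FDR = 1.50e-09).

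On the other side, Rragc stood at 97.1, 87.5, 104.7 and 110.0 CPM in WT and at 87.1, 68.7, 78.1 and 73.9 CPM in AMPK KO under torin1, above the DMSO libraries of each genotype. It rose by 0.41 ± 0.06 (SE, edgeR FDR = 3.76e-06) and by 0.53 ± 0.06 (edgeR FDR = 1.48e-07) on the log2 scale. Rragd held 0.761, 0.793, 1.42 and 1.60 CPM in WT, a pair of lower and a pair of higher libraries that all lay above the controls, and rose by 1.62 ± 0.28 (SE, edgeR FDR = 1.86e-05). In AMPK KO it held 9.002, 6.96, 8.27 and 6.53 CPM, of which 2 libraries lay below the highest DMSO library, and its log2 change was 0.49 ± 0.17 (SE, edgeR FDR = 0.0145). This last call was lost without AMPK KO torin1 replicate 1 (0.40, edgeR FDR = 0.0661) or without AMPK KO DMSO replicate 4 (0.33, edgeR FDR = 0.116), and in a test against a fold change of 1.2 (edgeR FDR = 0.0908).

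The corresponding interaction for torin1 was called for 1 of the 7 genes, Rragd, at -1.13 ± 0.33 on the log2 scale (SE, edgeR FDR = 0.0294). Called higher were 4.19% of all tested genes and called lower 2.93%. Fnip1 had a difference of 0.49 ± 0.16 (edgeR FDR = 0.0501), Rragb of 0.41 ± 0.15 (edgeR FDR = 0.0936) and Flcn of 0.30 ± 0.11 (edgeR FDR = 0.0815), the response being the larger one in AMPK KO for these 3. The 95% intervals of Fnip2, -0.11 to 0.41, of Rraga, -0.08 to 0.17, and of Rragc, -0.07 to 0.30, included 0. The Rragd call was lost without WT DMSO replicate 2, 3 or 4 or without WT torin1 replicate 3 or 4, with values from -1.13 to -0.93 and edgeR FDR from 0.0541 to 0.0725. With passage as a block, 4 genes were called in this interaction, Flcn, Fnip1, Rragb and Rragd.

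**Figure D2:**
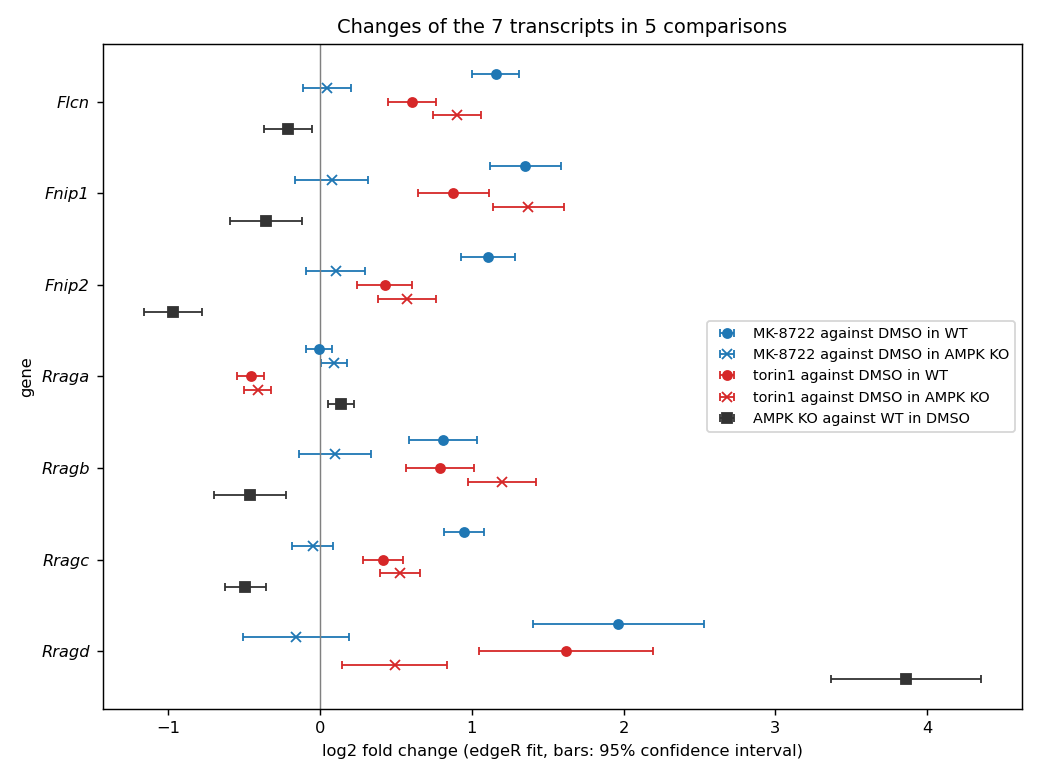
Log2 fold changes of the 7 transcripts in 5 comparisons (edgeR fit, points are estimates and bars 95% confidence intervals). The intervals for MK-8722 in AMPK KO lie at 0 for all but Rraga, where the lower end is 0.01, those for torin1 lie on the same side of 0 in both genotypes for every gene, and Rragd stands apart in the comparison of AMPK KO with WT at 3.86.

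Under DMSO, 1 of the 7 transcripts was called higher in AMPK KO than in WT and 4 were called lower, beside 30.8% and 25.9% of all tested genes. Knock-out, cell line and passage range cannot be told apart in this comparison. Rragd was higher by 3.86 ± 0.24 on the log2 scale (SE, edgeR FDR = 2.93e-13), a fold change of 14.5 over the 8 to 14 counts of the WT libraries. Its AMPK KO libraries held 140 to 232 counts, and the lowest of all 12 AMPK KO libraries, at 4.20 CPM, was above the highest of the 12 WT libraries, at 1.75 CPM. Fnip2 was lower at -0.97 ± 0.09 on the same scale (edgeR FDR = 1.15e-09), Rragc at -0.49 ± 0.06 (edgeR FDR = 2.55e-07), Rragb at -0.46 ± 0.11 (edgeR FDR = 0.000905) and Fnip1 at -0.36 ± 0.12 (edgeR FDR = 0.00904), each without overlap between the groups. Flcn, at -0.21 ± 0.08 (edgeR FDR = 0.0189), and Rraga, at 0.14 ± 0.04 (edgeR FDR = 0.00516), passed the p threshold at a fold change under 1.2, and Flcn was called without WT DMSO replicate 3 (-0.30, edgeR FDR = 0.00183). Scaled by library size alone, the median of all tested genes moved from 0.02 to 0.15 in this comparison, Fnip1 was no longer called (-0.21, edgeR FDR = 0.127) and Rraga was (0.28, edgeR FDR = 2.34e-06).

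Set directly against each other in WT, torin1 gave lower levels than MK-8722 for 5 of the 7 genes and higher levels for none, beside 21.1% of tested genes called lower and 24.4% called higher. The log2 differences were -0.68 ± 0.09 for Fnip2 (SE, edgeR FDR = 2.29e-07), -0.55 ± 0.07 for Flcn (edgeR FDR = 6.71e-07) and -0.47 ± 0.11 for Fnip1 (edgeR FDR = 0.000639). Rragc differed by -0.54 ± 0.06 (edgeR FDR = 7.31e-08) and Rraga by -0.45 ± 0.04 (edgeR FDR = 2.09e-09). Rragb differed by -0.02 ± 0.10 (edgeR FDR = 0.869, 95% interval -0.24 to 0.19) and Rragd by -0.35 ± 0.22 (edgeR FDR = 0.194, 95% interval -0.81 to 0.12).

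The order of the 6 groups differed among the genes. Flcn, Fnip1, Fnip2, Rragb and Rragc had their highest mean in WT under MK-8722, at 71.8, 71.6, 61.9, 10.7 and 144.7 CPM. For Flcn, Fnip2 and Rragc that group lay above the next without overlap, while for Fnip1 it overlapped with AMPK KO under torin1 (56.7 CPM) and for Rragb with both torin1 groups (10.6 and 10.2 CPM). Fnip2 was the gene whose 3 WT groups all lay above all 3 AMPK KO groups, from 61.9, 38.6 and 28.7 CPM down to 21.9, 15.8 and 14.7 CPM. Rraga had its highest mean in AMPK KO under MK-8722 (76.3 CPM) and its lowest in WT under torin1 (47.4 CPM). Rragd was ordered by genotype, from 7.69, 5.46 and 4.90 CPM in AMPK KO under torin1, DMSO and MK-8722 to 1.47, 1.14 and 0.371 CPM in WT under MK-8722, torin1 and DMSO.

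Levels were set against each other per length for the paralogues. In WT DMSO, Fnip1 stood at 6.87 ± 0.13 TPM and Fnip2 at 8.34 ± 0.82 TPM (SD, n = 4 here and below), while Flcn stood at 17.2 ± 1.2 TPM. Rraga, at 64.7 ± 0.6 TPM, was the most abundant of the Rag transcripts, followed by Rragc at 46.6 ± 2.7 TPM, Rragb at 6.94 ± 0.59 TPM and Rragd at 0.113 ± 0.027 TPM. Under MK-8722 the order of the most abundant pair turned, with Rragc at 91.4 ± 5.2 TPM and Rraga at 65.4 ± 4.1 TPM. In AMPK KO under DMSO, Rraga stood at 76.4 ± 1.7 TPM, Rragc at 35.1 ± 1.9 TPM, Rragb at 5.29 ± 0.53 TPM and Rragd at 1.79 ± 0.44 TPM.

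The log2 ratio of paralogues within a library does not depend on library scaling, and 3 such ratios were compared in 5 comparisons, 15 exact two-sided permutation tests in all. With 4 libraries against 4 the smallest p is 0.0286, which becomes 0.0429 after Benjamini-Hochberg adjustment over the 15. In 10 of the 15 the groups did not overlap, and each of these 10 had that adjusted p of 0.0429 in the exact permutation test. The other 5 included all 3 ratios for MK-8722 in AMPK KO, with differences of 0.02 for Fnip1 over Fnip2, -0.01 for Rragb over Rraga and -0.04 for Rragd over Rragc.

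Fnip1 over Fnip2 had a ratio of 0.827 in WT DMSO, 0.975 under MK-8722 and 1.15 under torin1. The log2 difference from DMSO was 0.48 for torin1 (exact permutation adjusted p = 0.0429), and for MK-8722 it was 0.24, with overlap (exact permutation adjusted p = 0.156). The groups were apart without WT DMSO replicate 3 (0.32), and also with all libraries kept when CPM replaced TPM (0.24). In AMPK KO the ratio was 1.25 in DMSO, 1.27 under MK-8722 and 2.16 under torin1, the last being 0.80 above DMSO on the log2 scale (exact permutation adjusted p = 0.0429). Fnip2 thus made up 54.7 ± 2.9% of the summed TPM of the pair in WT DMSO and 31.6 ± 2.2% in AMPK KO under torin1. Between the genotypes under DMSO, the log2 ratio was higher by 0.59 in AMPK KO (exact permutation adjusted p = 0.0429).

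Rragb over Rraga rose with torin1 in both genotypes and with MK-8722 in WT. Rragb made up 9.68 ± 0.71% of the summed TPM of both in WT DMSO, 15.7 ± 1.9% under MK-8722 and 19.5 ± 1.3% under torin1. In AMPK KO its share was 6.47 ± 0.67% in DMSO, 6.51 ± 1.28% under MK-8722 and 17.0 ± 1.2% under torin1. On the log2 scale, the ratio was above DMSO by 0.80 for MK-8722 in WT, 1.17 for torin1 in WT and 1.57 for torin1 in AMPK KO, and AMPK KO differed from WT by -0.63 under DMSO (exact permutation adjusted p = 0.0429 for each). Rragb remained the minor paralogue in every library.

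Rragd over Rragc differed most between genotypes. Rragd made up 0.241 ± 0.050% of the summed TPM of both in WT DMSO and 4.83 ± 0.98% in AMPK KO DMSO, a log2 difference of 4.39 (exact permutation adjusted p = 0.0429). Its WT share was 0.499 ± 0.106% under MK-8722 and 0.562 ± 0.132% under torin1, with log2 differences from DMSO of 1.05 and 1.22 (exact permutation adjusted p = 0.0429 for each). In AMPK KO it was 4.68 ± 0.64% under MK-8722 and 4.67 ± 0.38% under torin1, both overlapping with DMSO. The log2 ratio under torin1 in AMPK KO differed from that in DMSO by -0.03 (exact permutation adjusted p = 0.943).

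**Figure D3:**
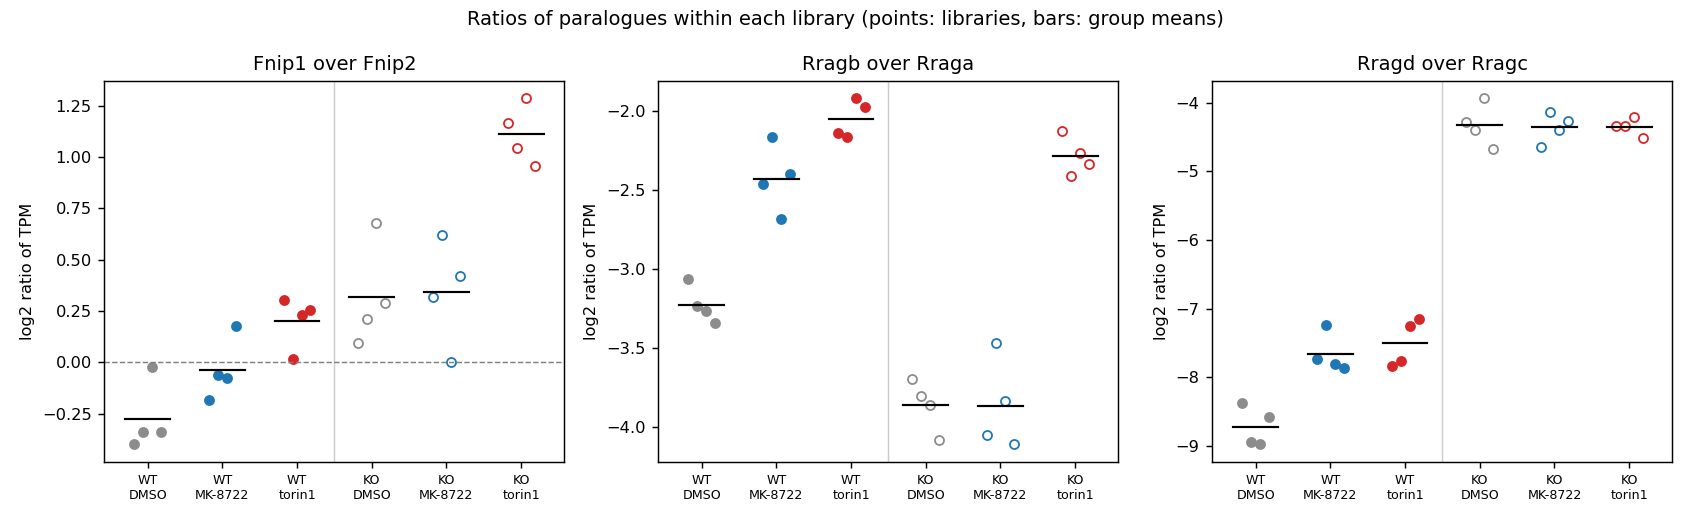
Log2 ratios of TPM within each library for Fnip1 over Fnip2, Rragb over Rraga and Rragd over Rragc, with 1 point a library, a bar at the group mean and, in the left panel, a dashed line at equal levels. Torin1 moved the first 2 ratios up in both genotypes, MK-8722 moved the Rragb ratio up in WT, and the Rragd ratio was above -5 in every AMPK KO library and below -7 in every WT library.

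The summed TPM of Rraga and Rragb and of Rragc and Rragd are given as a description, without a test. The first sum was 71.7 ± 1.0 TPM in WT DMSO, 77.6 ± 3.7 under MK-8722 and 63.0 ± 2.8 under torin1. The second was 46.7 ± 2.7, 91.9 ± 5.2 and 67.2 ± 6.9 TPM in the same groups. RagA and RagB transcripts together were thus 1.54 ± 0.08 times those of RagC and RagD in WT DMSO and 0.845 ± 0.019 times under MK-8722, with the highest MK-8722 library at 0.873 and the lowest DMSO library at 1.46. Under torin1 in WT the ratio was 0.946 ± 0.131. In AMPK KO it was 2.22 ± 0.10 in DMSO, 2.46 ± 0.10 under MK-8722 and 1.30 ± 0.14 under torin1, and the 12 AMPK KO libraries ran from 1.14 to 2.59.

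For the FLCN complex, the ratio of Flcn TPM to the summed TPM of Fnip1 and Fnip2 is likewise a description. It was 1.13 ± 0.04 in WT DMSO, 1.13 ± 0.05 under MK-8722 and 1.15 ± 0.07 under torin1, although the summed TPM of Fnip1 and Fnip2 went from 15.2 ± 0.7 in DMSO to 36.3 ± 1.3 under MK-8722. In AMPK KO the ratio was 1.55 ± 0.09 in DMSO, 1.51 ± 0.08 under MK-8722 and 1.40 ± 0.08 under torin1, and every AMPK KO library, from 1.33 up, lay above every WT library, of which the highest stood at 1.23.

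**Figure D4:**
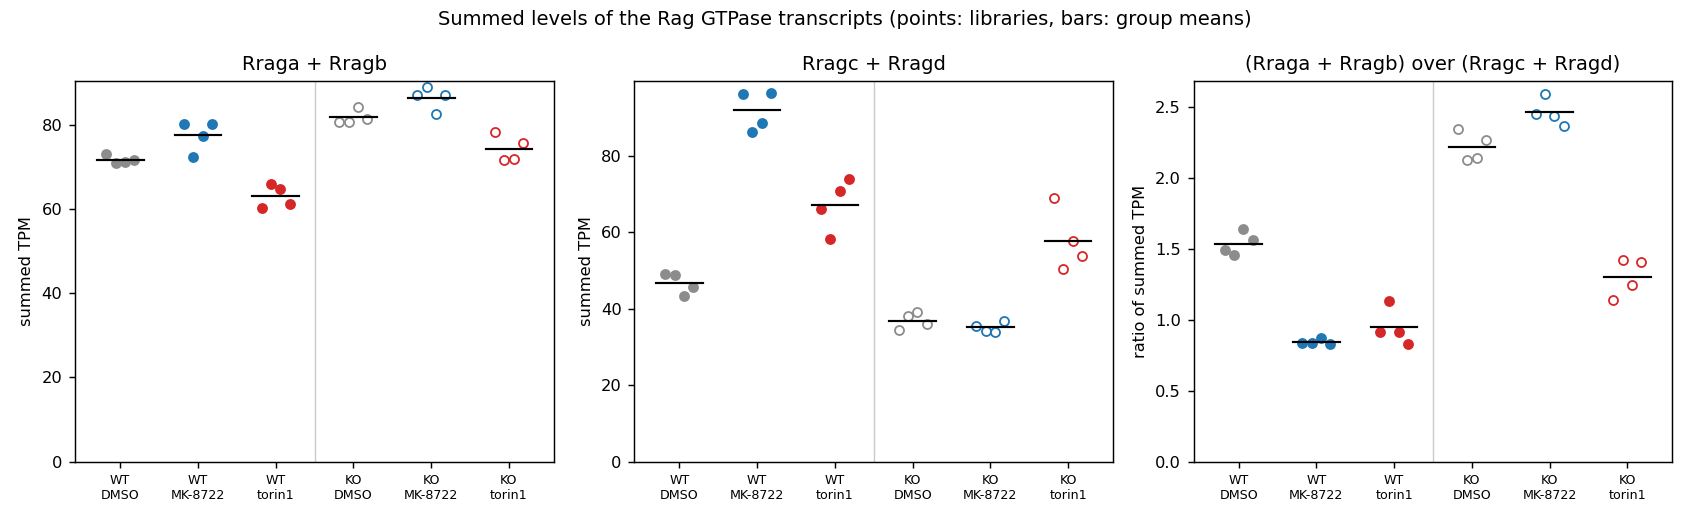
Summed TPM of Rraga and Rragb, summed TPM of Rragc and Rragd, and the ratio of these sums (linear axes from 0), with 1 point a library and a bar at the group mean. The ratio is below 1 in the WT MK-8722 libraries, at 0.832 to 0.873, and above 2 in AMPK KO under DMSO and MK-8722.

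Transcripts were taken from the deposited transcript tables, as shares of the TPM of each gene. Rraga has 1 annotated transcript. ENSMUST00000046835 held 95.7% of Fnip1 TPM over all libraries, with group means from 94.5% to 97.1%, and ENSMUST00000030399 held 88.7% of Rragc TPM. Rragb was divided between ENSMUST00000144175, of 847 bases, with 55.2%, and ENSMUST00000039720, of 2258 bases, with 44.8%, and the latter ranged over group means from 42.1% to 46.6%. Flcn was divided mainly between ENSMUST00000091246 (41.4%) and ENSMUST00000102697 (37.4%), the latter at 42.3 ± 2.9% in WT DMSO and 34.5 ± 0.5% under MK-8722. Fnip2 had 4 transcripts with at least 10% of its TPM, led by ENSMUST00000133154 with 47.1%. The estimated counts of the 7 genes were within 0.001 of whole numbers in all 24 libraries.

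The other genes of the amino acid pathway were read from the same fit. Their counts are to be read beside the shares of all tested genes. With torin1 these shares in WT cells were 26.5% called higher against 21.1% called lower, with MK-8722 9.96% against 5.6%. The AMPK KO shares were 25.8% against 17.5% for torin1, 0.809% against 0.651% for MK-8722. Whether any list held more calls than these shares was not tested. Ragulator is the scaffold that anchors the Rag dimer to the lysosome, and MK-8722 raised 2 of its 5 subunit transcripts in WT, Lamtor3 by 0.55 ± 0.05 (SE, edgeR FDR = 1.43e-09) and Lamtor1 by 0.33 ± 0.04 (edgeR FDR = 1.51e-06) on the log2 scale. Torin1 raised none of them in WT and lowered 3, Lamtor3 at -0.50 ± 0.05 (edgeR FDR = 1.02e-09), Lamtor4 at -0.29 ± 0.06 (edgeR FDR = 0.000152) and Lamtor5 at -0.27 ± 0.06 (edgeR FDR = 0.000190). In AMPK KO no subunit was called under MK-8722, with log2 changes from -0.07 for Lamtor5 to 0.05 for Lamtor3, and torin1 lowered Lamtor4. Under DMSO none of the 5 was called between the genotypes. The median log2 change of the 5 was 0.24 for MK-8722 and -0.27 for torin1 in WT.

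GATOR1, the GTPase-activating complex of RagA and RagB, had 1 of 3 subunits called under MK-8722 in WT, Nprl2 at 0.28 ± 0.05 (SE, edgeR FDR = 0.000237), and 1 under torin1, Nprl3 at 0.39 ± 0.08 (edgeR FDR = 0.000123). GATOR2, which opposes it, had 1 of 5 called higher under MK-8722 in WT, Wdr59 at 0.45 ± 0.04 (edgeR FDR = 9.93e-09). Under torin1 in WT, Wdr59 rose by 0.62 ± 0.04 (edgeR FDR = 2.76e-12) while Sec13 and Seh1l were called lower, Sec13 at -0.93 ± 0.05 (edgeR FDR = 5.54e-14). KICSTOR, which holds GATOR1 at the lysosome, had 3 of its 4 listed genes tested. Its subunit Itfg2 was called lower under MK-8722 in WT, at -0.44 ± 0.06 (edgeR FDR = 2.49e-06), and higher under torin1, at 0.47 ± 0.06 (edgeR FDR = 8.87e-08). In AMPK KO, torin1 called Wdr59 higher at 0.57 ± 0.04 (edgeR FDR = 2.48e-11), Mios at 0.28 ± 0.07 (edgeR FDR = 0.000757) and Itfg2 at 0.30 ± 0.05 (edgeR FDR = 5.77e-05). Sec13 was called lower there at -0.69 ± 0.05 (edgeR FDR = 1.27e-11), and no GATOR1 subunit was called. MK-8722 called no gene of these complexes in AMPK KO.

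Of 9 tested amino acid sensors and other Rag regulators, MK-8722 in WT raised 1, the lysosomal arginine sensor Slc38a9, by 0.39 ± 0.10 (SE, edgeR FDR = 0.00379), and lowered 4, Sesn1, Sesn2, Sesn3 and Castor2. Torin1 in WT raised 2, Castor1 by 1.06 ± 0.09 (edgeR FDR = 2.67e-10) and Slc38a9 by 0.80 ± 0.09 (edgeR FDR = 7.53e-08). It lowered 5, the leucine sensor gene Sesn2 most, at -3.24 ± 0.15 (edgeR FDR = 2.07e-13), and also Lars, Castor2, Sesn3 and Bmt2. In AMPK KO, torin1 raised 2 of the 9, Slc38a9 by 0.47 ± 0.09 (edgeR FDR = 9.52e-05) and Castor1 by 0.42 ± 0.09 (edgeR FDR = 0.000247). It lowered 3 there, Sesn2 at -2.41 ± 0.14 (edgeR FDR = 9.47e-12), Castor2 at -0.86 ± 0.09 (edgeR FDR = 3.11e-08) and Lars at -0.79 ± 0.15 (edgeR FDR = 0.000107). MK-8722 in AMPK KO called Sesn1 alone of the 9, at -0.35 ± 0.09 (edgeR FDR = 0.0387).

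Of the 6 genes for MTORC1 subunits and its activator Rheb, Mtor was called in none of the 5 comparisons in the plot of pathway changes. Under torin1 in WT, Rptor, which binds substrates, was called lower at -0.41 ± 0.05 (SE, edgeR FDR = 2.58e-08) and Rheb at -0.42 ± 0.08 (edgeR FDR = 6.14e-05). Under torin1 in AMPK KO, Rheb was called lower at -0.40 ± 0.08 (edgeR FDR = 0.000118). Rptor passed the p threshold there at a fold change under 1.2 (-0.24 ± 0.05, edgeR FDR = 5.73e-05), and Deptor was called higher at 0.78 ± 0.10 (edgeR FDR = 4.86e-07). Deptor, an inhibitory subunit, was called higher under MK-8722 in WT at 0.42 ± 0.09 (edgeR FDR = 0.00119) and lower in AMPK KO at -0.62 ± 0.11 (edgeR FDR = 0.00344). Among 3 tested MiT/TFE factor genes, Tfeb was called lower under MK-8722 in WT at -0.38 ± 0.10 (edgeR FDR = 0.00628) and Tfe3 at -0.26 ± 0.04 (edgeR FDR = 1.54e-05), and Tfe3 was called lower under torin1 in WT at -0.49 ± 0.04 (edgeR FDR = 1.21e-10). Mitf was called higher under torin1 in WT at 0.45 ± 0.16 (edgeR FDR = 0.0184). In AMPK KO, torin1 called Tfe3 lower at -0.46 ± 0.04 (edgeR FDR = 5.22e-10) and Tfeb lower at -0.46 ± 0.10 (edgeR FDR = 0.000237). Mitf was not called there (0.32 ± 0.16, edgeR FDR = 0.0949), and MK-8722 called none of these factor genes in AMPK KO. Rnf152 and Tfec did not pass the filter, and no row carried the symbol Kics2.

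**Figure D5:**
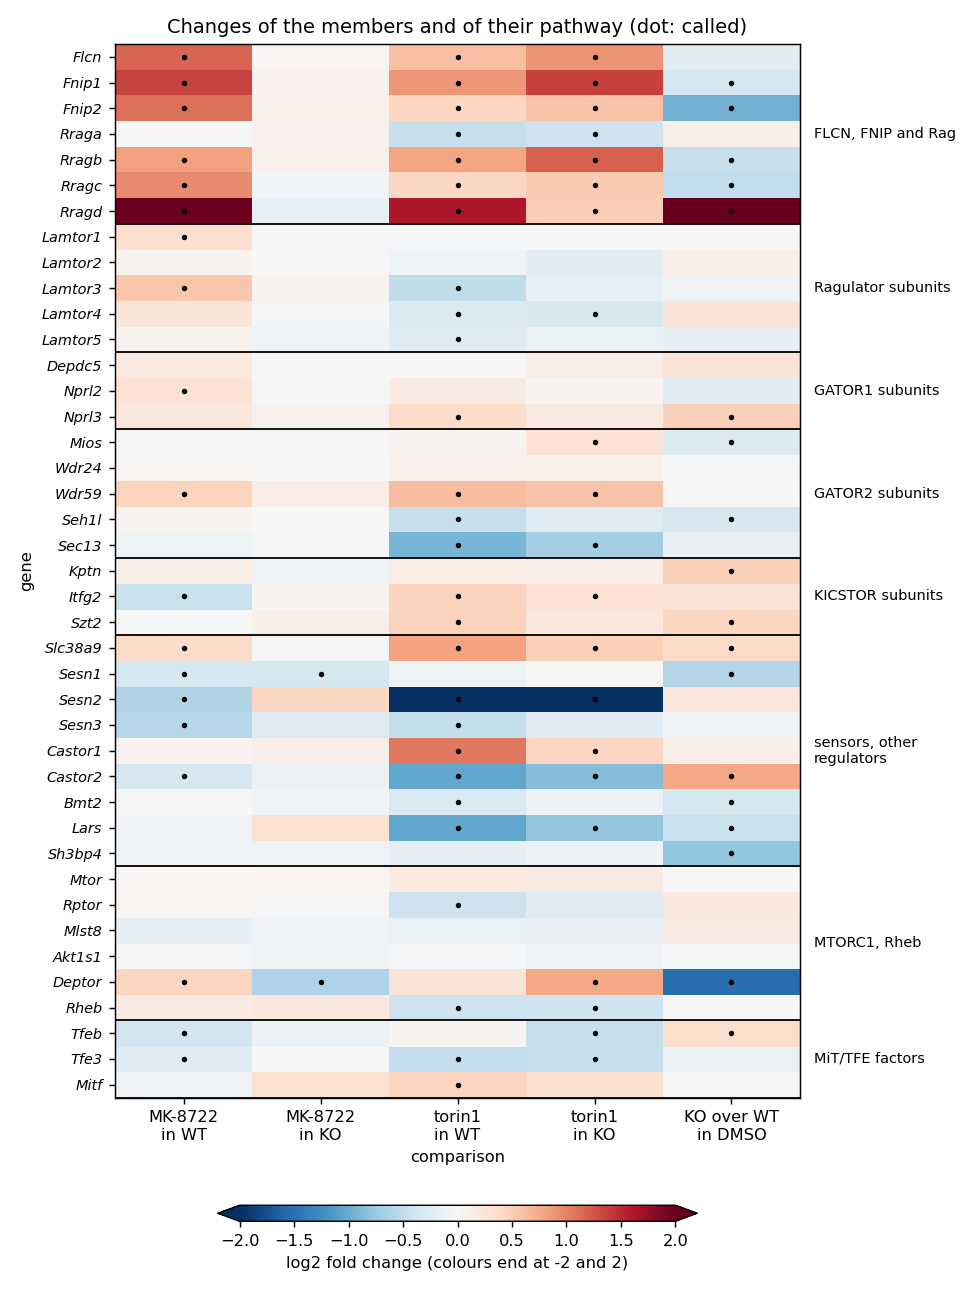
Log2 fold changes (colour, ending at -2 and 2) of the 7 genes and of the tested genes of 7 pathway lists in 5 comparisons, with a dot where a gene was called. The block of the FLCN, FNIP and Rag genes has 6 of 7 called higher under MK-8722 in WT, beside 9.96% of all tested genes. The other lists hold from 3 to 9 tested genes, with at most 2 called higher in that column, so the counts are not on the same footing.

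Across the 24 libraries, log2 CPM of Flcn and Fnip1 had a Pearson r of 0.98, Fnip2 and Rragc one of 0.98 and Fnip1 and Rragb one of 0.95. Rraga was negatively related to the other genes of the set except Rragd, from -0.76 with Rragb to -0.44 with Fnip2, and Rragd had r of -0.58 with Fnip2. These values describe libraries that fall into 6 groups and share their scaling. Among 10027 other genes with a mean of at least 5 CPM, those most alike to Flcn included Mroh1 and Atp6v1b2 (r of 0.98 for each), to Fnip1 Aga, Mfsd1 and Serac1 (0.97 for each) and to Fnip2 Dnajc13 and Washc4 (0.99 and 0.98). For the Rag genes they were Atp5md, Ndufs5 and Bud23 for Rraga (0.97 to 0.99), Marchf8, Washc2 and Mfsd1 for Rragb (0.96 to 0.97), Arl8b, Vps26a and Pip4p1 for Rragc (0.99 for each) and Grina, Shc2 and Plcg2 for Rragd (0.97 to 0.98). Mfsd1, which encodes a lysosomal membrane protein, was the gene listed for 2 of the 7.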

How the data were processed

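Groups follow the genotype and treatment labels. By the study's methods and the submitters' processing notes, the authors used nf-core/rnaseq with STAR and Salmon on mouse GRCm38, and deposited one table of estimated counts per gene, not normalized, and one transcript table per library with TPM (abundance per length and depth). The methods mention a batch removal without naming the batch, and none was removed here. The gene counts were rounded, filtered with filterByExpr, scaled with TMM and fitted with 6 group means in edgeR 4.0.16 (quasi-likelihood test, two-sided, R 4.3.3) on all 24 libraries, with p values adjusted over 15828 genes. Log2 fold changes, their SE and their 95% intervals come from that fit, and CPM were computed with the TMM factors. A count of 10 corresponds to the filter's 0.325 CPM, and intervals cover the spread between libraries, not copies left after the handling of molecular identifiers. Paralogue ratios used TPM summed over the transcripts of each gene, compared by exact two-sided permutation tests (Python 3.11.15, scipy 1.17.1). DESeq2 1.42.0, other scalings, filters, thresholds and blocks, and leaving out each library in turn, were tried as alternatives. Scripts were tested on simulated data.

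The members, the pathway lists, the markers and the alternatives were chosen with earlier results of these data known. Named were the 7 members, genes of the lists, Prkaa1 and Prkaa2, and for each member the 3 genes most alike over the libraries, gene models and pseudogenes passed over. Some genes of that last kind are not reported here. Gene positions and overlaps came from the GRCm38 annotation, and promoters from RefSeq (GRCm38.p6). The pairing by passage was checked from the correlation of deviations from the group means.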

Additional observations from a re-analysis of the deposited data

Results flagged for a closer look

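Over 42 sets of 4 libraries (7 genes in 6 groups), 4 held a library farther from the rest than Dixon's 95% limit, where chance gives about 1 in 20. These were Fnip1 in AMPK KO DMSO replicate 3 at 25.7 CPM, Rragb in AMPK KO MK-8722 replicate 2 at 5.87 CPM, and Rraga in AMPK KO DMSO replicate 1 at 70.9 CPM and in WT DMSO replicate 2 at 64.2 CPM. In both Rraga groups the whole range was narrow, with SDs of 0.420 and 0.525 CPM. The Fnip1 and Rragb libraries were both of passage 16.

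The response to MK-8722 differed between the genotypes by the interaction test for Flcn (-1.11 on the log2 scale), Fnip1 (-1.27), Fnip2 (-1.002), Rragb (-0.71), Rragc (-0.998) and Rragd (-2.12), with the lower response in AMPK KO. The response to torin1 differed for Rragd (-1.13), whose WT DMSO libraries held 8 to 14 counts.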

How the results depend on the processing

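Of 37 called results for the 7 genes, 802 of 827 values under alternatives stayed called in the same direction and 25 lost the call, and none changed sign. Of 19 results not called, 421 of 453 values stayed so, 15 gained a call and 17 changed sign. The count of genes called in the torin1 by genotype interaction, 1 in the report, was 0 with at least 10 counts required in every library (Rragd was not tested) and 0 in a test against a fold change of 1.2, 2 without rounding, 2 with DESeq2, and from 0 to 3 when leaving out 1 library. With at least 1.5-fold in place of 1.2, torin1 called 4 genes in WT and 3 in AMPK KO, and the calls were 2 between genotypes and 1 for torin1 against MK-8722. In the test against 1.2, Fnip1 between genotypes (edgeR FDR = 0.153) and Rragd under torin1 in AMPK KO (edgeR FDR = 0.0908) also lost their calls.

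Same-passage libraries deviated together at r from -0.01 to 0.37, over 0.1 in 15 of 24 pairs, against 0 of 72 pairs of other passages in the same genotype. Pairs of the same replicate number were over 0.1 in 5 of 60, and in 1 of the 54 among them that were of other passages. The labels do not say that a passage was handled together, so the libraries were not taken as paired. With passage as a block the torin1 interaction called 4 genes, and with replicate number as a block 2, Fnip1 (edgeR FDR = 0.0489) and Rragd, and neither block changed the count in another comparison.

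Values that changed sign were near 0 and not called in either case. With library size alone, Rraga under MK-8722 in WT was 0.0007 and Rragb for torin1 against MK-8722 was 0.07, the latter 0.0232 with at least 10 counts in every library. Rraga in the torin1 interaction was -0.005 with at least 10 counts in every library and -0.0271 with the compared libraries alone. Leaving out 1 library, the log2 change ran from -0.0320 to 0.0375 for Rraga under MK-8722 in WT, from -0.0747 to 0.05 for Rragb in torin1 against MK-8722, from -0.0167 to 0.154 for Rragb under MK-8722 in AMPK KO and from -0.0467 to 0.0826 for Rraga in the torin1 interaction. The ratio differences in AMPK KO then ran from -0.0710 to 0.143 (Fnip1 over Fnip2), from -0.139 to 0.0751 (Rragb over Rraga) and from -0.152 to 0.0912 (Rragd over Rragc) for MK-8722, and from -0.147 to 0.0963 (Rragd over Rragc) for torin1. With CPM in place of TPM, the MK-8722 differences in AMPK KO were -0.0251 for Fnip1 over Fnip2 and 0.0012 for Rragb over Rraga, and in WT the groups of Fnip1 over Fnip2 no longer overlapped (0.24). Scaling by library size alone moved the share of higher genes among those called from 55.7% to 67.5% for torin1 in WT, from 54.3% to 67.4% between genotypes, from 53.6% to 65.4% for torin1 against MK-8722 and from 58.8% to 42.5% for the torin1 interaction, which was 48.8% with DESeq2 size factors. What moved these values was not tested. Depth limits Rragd in WT DMSO most, at 8 to 14 counts.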

Other observations

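Among the pathway genes, the response to torin1 differed between the genotypes for 5 by the interaction test. Over all tested genes, 4.19% were called higher and 2.93% lower in this interaction. Castor1, an arginine sensor gene, had a log2 difference of -0.63 ± 0.13 (SE, edgeR FDR = 0.00255), its rise being smaller in AMPK KO. Tfeb had one of -0.52 ± 0.14 (edgeR FDR = 0.0176). Torin1 did not change its call in WT (0.06, edgeR FDR = 0.632, not called), while in AMPK KO it was called lower (-0.46, edgeR FDR = 0.000237). The difference was positive for Sesn2, at 0.84 ± 0.20 (edgeR FDR = 0.0110), for Deptor, at 0.52 ± 0.14 (edgeR FDR = 0.0178), and for Lamtor3, at 0.35 ± 0.06 (edgeR FDR = 0.00149). Sesn2 and Lamtor3 fell less in AMPK KO (-2.41 and -0.16) than in WT (-3.24 and -0.50), while Deptor rose more (0.78 against 0.26). For MK-8722, 3 of the 5 Ragulator transcripts had a lower response in AMPK KO, beside 7.56% of all tested genes. They were Lamtor3 at -0.50 ± 0.06 (edgeR FDR = 5.66e-06), Lamtor1 at -0.38 ± 0.06 (edgeR FDR = 8.12e-05) and Lamtor4 at -0.26 ± 0.08 (edgeR FDR = 0.0269). In the same interaction, 1 gene was called lower in each of the GATOR1, GATOR2 and MTORC1 and Rheb lists. The KICSTOR, sensor and MiT/TFE lists had 1 gene each called higher, beside 5.05% of all tested genes.

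Between the genotypes under DMSO, Deptor was lower in AMPK KO, at -1.51 ± 0.10 on the log2 scale (edgeR FDR = 1.23e-12) and Sh3bp4, a Rag regulator, at -0.78 ± 0.09 (edgeR FDR = 2.13e-08), while Castor2 was higher by 0.77 ± 0.09 (edgeR FDR = 8.54e-08). Deptor was the 1 gene called of the 6 for MTORC1 and Rheb. Of the 9 sensors and other Rag regulators, 2 were called higher and 4 lower. Over all tested genes, 30.8% were called higher and 25.9% lower in this comparison.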
